A study of Mus musculus with 18 samples.

Results

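The genes described here are 29 genes of sterol and fatty acid synthesis that are known targets or regulators of the sterol regulatory element binding proteins (SREBPs). They were taken as a fixed list of symbols, found through their Ensembl identifiers among the 41388 genes listed for every library, and all 29 were found. The series asks which genes the T-box transcription factor Eomes regulates as natural killer (NK) cells mature. RNA was sequenced from NK cells purified from pooled spleens of C57BL/6 mice. Deleted cells (KO) came from mice that carried Eomesfl/fl, Rosa26YFPLSL and Ncr1-iCreERT2 KI/WT and were given tamoxifen for 3 days. Their Cre is made from the Ncr1 gene, a gene active in NK cells and in type 1 innate lymphoid cells (ILC1). The comparison cells were labelled WT with no further genotype, and it is not clear whether those mice had Cre or were given tamoxifen, so any effect of Cre or of the drug and the effect of losing Eomes cannot be told apart. Sorting separated stage II (positive for CD27 and negative for CD11b), stage III (positive for both) and stage IV (negative for CD27 and positive for CD11b), with 3 libraries for each genotype and stage, 18 in all. The mice were 8 to 12 weeks old and came from 3 separate experiments. No label ties a replicate number to an experiment or gives the number of spleens in a pool. P-values therefore measure the spread between these libraries. These are bulk samples, in which fewer cells of a type and less RNA per cell cannot be told apart.

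SREBPs are transcription factors made as membrane proteins of the endoplasmic reticulum. When sterols are scarce, the escort protein Scap carries them to the Golgi, where proteases release the part that enters the nucleus, and when sterols are plentiful the Insig proteins hold Scap back. The released factors raise the genes of the mevalonate pathway, of the steps from squalene to cholesterol and of fatty acid synthesis. In NK cells, SREBP activity is known to rise after cytokine stimulation, whereas the cells measured here were sorted from spleen without any stimulation named in the labels.

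The libraries held 18684350 to 28365837 counts each. Eomes itself, in CPM (the count over the library total, rescaled as the authors deposited it), was 191, 210 and 213 in WT and 55.2, 74.3 and 59.7 in KO at stage II. It was 287, 250 and 277 in WT and 160, 155 and 136 in KO at stage III, and 253, 237 and 275 in WT and 121, 109 and 89.8 in KO at stage IV. Every KO library was below every WT library of its stage, and none was at 0. Fewer genes were detected in KO stage III replicate 1 (14824) and replicate 3 (16536) than in replicate 2 (21454). The top 10 genes held 20.6% of the counts in replicate 3 and 10.6% in replicate 2, with replicate 1 between them. Itgam, which encodes CD11b and defines stage III, stood at 92.7 and 83.6 CPM in those libraries, at 298 CPM in replicate 2 and at 390 to 469 CPM in WT stage III. The most genes were detected in replicate 1 of WT stage II (29859) and replicate 3 of KO stage IV (27912). The RNA Xist, made from an inactive X chromosome, was at most 0.636 CPM in WT replicates 2 and 3 of each stage. It was 5.66 to 45.2 CPM in the other 12 libraries, which include every KO library. Xist and genotype thus largely go together, and the part of this in the KO against WT change of any member was not tested. Of the 29 members Ebp and Nsdhl lie on the X chromosome. The summed CPM of 8 ILC1 markers was 656 to 1266 in WT and 1612 to 1956 in KO at stage II, 48.4 to 61.0 and 146 to 272 at stage III, and 24.3 to 28.9 and 50.2 to 67.8 at stage IV. None of those 8 markers was at 0 in any library. The part of the libraries' makeup in the results below was not tested, except where values without a library are given.

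Promoters show what the members share in sequence. A RefSeq table for GRCm38.p6 held 31 promoters of 23 members, each a window of 300 bases from 250 before to 50 after a transcription start. The table had no entry for Fdps, Fdft1, Sqle, Scd1, Scd2 or Stard4. Motifs were searched as letters on both strands. The NF-Y box CCAAT was in 20 of the 31 windows (64.5%), against 37.4% of all 32841 promoters in the table. The Sp1 box GGGCGG was in 23 (74.2%), against 35.7% of all. The E-box CACGTG was in 6 (19.4%), against 7.15% of all, and these belonged to Dhcr7, Hsd17b7, Insig1, Sc5d and Scap. The sterol regulatory element TCACNCCAC was in 1 window (3.23%), against 1.24% of all, and the T-box half-site AGGTGTGA was in 0 of 31, against 1.28% of all. All promoters in the table include those of genes not tested here. No share over the tested genes alone was taken, so these shares do not show that a motif is particular to the members. A match is a description of letters, and a window without these letters says nothing of a factor's binding.

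Below are the 250 bases before the start of 4 members, 5′ to 3′, with each match to the 5 motifs in capitals on either strand. Lss and Mvk are shown because they were called in the comparisons below. Hmgcs1 was added after the motifs were seen because it holds the sterol element TCACCCCAC, 137 bases before the start, and Insig1 because it holds an E-box, 101 bases before the start. Mvk holds 5 CCAAT matches and 2 GGGCGG matches. The intervals on GRCm38.p6, all on the plus strand, are chr10:76531355-76531604 for Lss, chr5:114444019-114444268 for Mvk, chr13:119690101-119690350 for Hmgcs1 and chr5:28071162-28071411 for Insig1.
Lss: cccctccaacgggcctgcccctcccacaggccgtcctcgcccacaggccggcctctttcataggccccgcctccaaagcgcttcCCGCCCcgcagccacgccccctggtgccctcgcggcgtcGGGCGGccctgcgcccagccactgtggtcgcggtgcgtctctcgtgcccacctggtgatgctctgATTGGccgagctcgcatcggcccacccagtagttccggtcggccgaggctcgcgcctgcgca
Mvk: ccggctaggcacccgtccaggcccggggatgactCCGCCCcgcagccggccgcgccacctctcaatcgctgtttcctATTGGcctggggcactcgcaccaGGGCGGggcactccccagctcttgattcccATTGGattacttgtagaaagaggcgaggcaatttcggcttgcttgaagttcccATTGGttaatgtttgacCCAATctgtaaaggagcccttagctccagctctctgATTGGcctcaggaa
Hmgcs1: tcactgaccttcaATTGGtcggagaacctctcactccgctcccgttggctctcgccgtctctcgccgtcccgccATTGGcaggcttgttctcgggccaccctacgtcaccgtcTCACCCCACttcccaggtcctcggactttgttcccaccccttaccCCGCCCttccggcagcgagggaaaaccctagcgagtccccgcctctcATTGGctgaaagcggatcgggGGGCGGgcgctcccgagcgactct
Insig1: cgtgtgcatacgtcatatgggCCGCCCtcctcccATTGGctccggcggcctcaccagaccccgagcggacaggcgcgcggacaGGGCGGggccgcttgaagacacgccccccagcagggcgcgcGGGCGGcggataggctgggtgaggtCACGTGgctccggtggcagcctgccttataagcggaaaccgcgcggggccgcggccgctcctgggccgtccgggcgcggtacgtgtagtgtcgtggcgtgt

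All 29 members passed the filter on low counts and were among the 14156 genes tested. Per length, in RPKM (CPM per kilobase), the sterol isomerase Ebp had the highest level, with a median over the 18 libraries of 66.4 RPKM and a range of 56.3 to 87.1. The sterol desaturase Sc5d followed at a median of 29.5 RPKM, then the sterol reductase Dhcr7 at 16.9, the sterol dehydrogenase Nsdhl at 16.4 and the stearoyl-CoA desaturase Scd2 at 15.2. The ranges of Ebp and Sc5d did not overlap. At the low end were Acaca, the acetyl-CoA carboxylase that starts fatty acid synthesis, at 0.427 RPKM, the squalene epoxidase Sqle at 0.424, the isopentenyl diphosphate isomerase Idi1 at 0.209 and Scd1 at 0.125. Scd1 had 2 to 42 counts a library and Idi1 had 9 to 37, so changes in them were poorly resolved. Across the 6 groups, mean CPM varied most for Scd1 (9.94-fold between the highest and lowest group), Lss (2.99-fold), Hsd17b7 (2.93-fold), Insig1 (2.22-fold) and Scd2 (2.16-fold). It varied least for Msmo1 (1.20-fold), Scap (1.21-fold), Ebp (1.23-fold) and Elovl6 (1.24-fold). Summed over all 29 members, CPM was 881 to 899 in WT and 850 to 902 in KO at stage II, 888 to 903 and 752 to 861 at stage III, and 888 to 956 and 869 to 937 at stage IV. Only at stage III did those summed ranges not overlap. The sums are of CPM without the scaling between libraries used in the fits, so they also move with the share of counts taken by other genes. In KO stage III the sum was 752 in replicate 3, where the top 10 genes held 20.6% of counts. It was 861 in replicate 2, where they held 10.6%. The part of this share in the stage III separation was not tested.

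After deletion of Eomes 1 member, Lss, was called lower at stage III, and no member was called at stage II or stage IV. At stage II, edgeR called 0 of the 29 members (4 at an unadjusted p under 0.05), against 1.46% of all tested genes, and DESeq2 called 1 of them, Scd2. At stage III edgeR called 1 member, against 8.17% of tested genes (2.87% of tested genes were called lower), and DESeq2 called 3. At stage IV edgeR called 0 (1 at an unadjusted p under 0.05), against 0.523%, and DESeq2 called 0. Averaged over the stages, edgeR called 0 (4 at an unadjusted p under 0.05), against 5.44%, and DESeq2 called 1. The shares of tested genes, here and below, are those called by edgeR. The DESeq2 counts stand without a share of their own, so they describe the setting and are not a result about the members. The members' median log2 change was 0.02 at stage II, -0.09 at stage III and -0.01 at stage IV, beside -0.01, 0.02 and 0.02 over all tested genes. The numbers of members above and below 0 were 16 and 13, 10 and 19, and 14 and 15. The approximate 95% interval lay within a 2-fold change either way for 23 members at stage II, 23 at stage III and 24 at stage IV. It lay within a 1.5-fold change for 15, 10 and 15. Members whose interval reached beyond 2-fold at all 3 stages were Idi1, Sqle, Hsd17b7, Insig1 and Scd1.

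**Figure D1:**
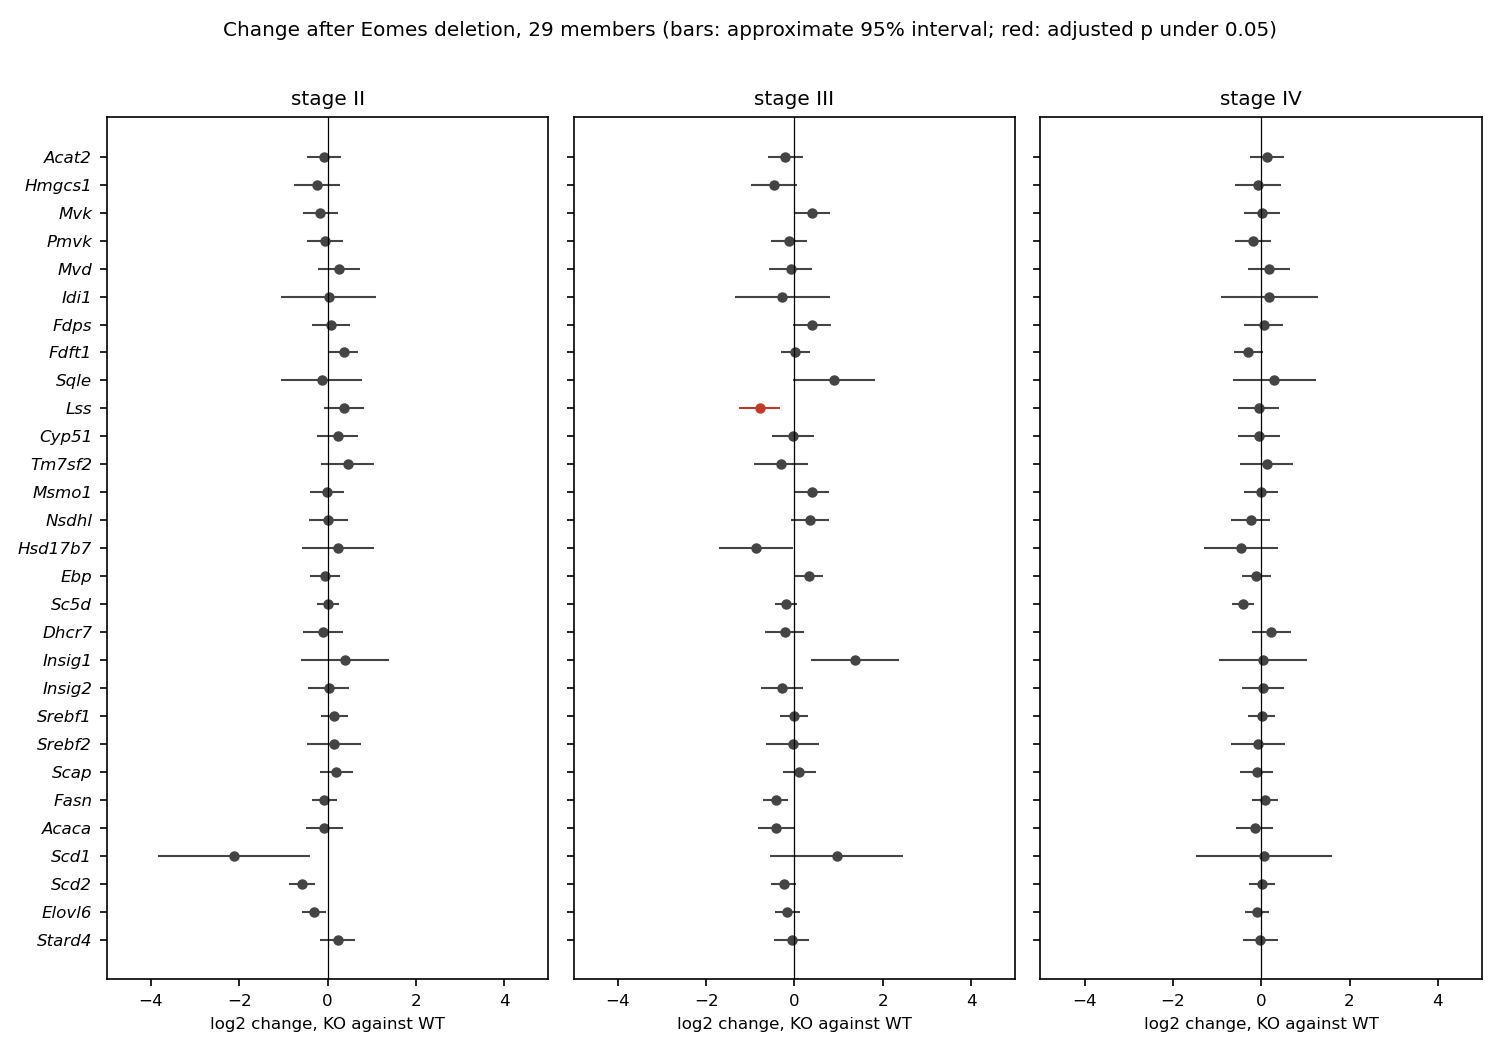
The log2 change of each of the 29 members in KO against WT (x axis) is drawn for stage II, III and IV, with bars for the approximate 95% interval. Lss at stage III, at -0.79, is the only member drawn in red for an adjusted p under 0.05, and most intervals cross 0.

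None of the 5 regulators was called in KO against WT at any stage (edgeR). Srebf1 encodes the SREBP best known for fatty acid genes, and stood at 39.7, 39.3 and 38.5 CPM in WT and 46.1, 40.3 and 43.9 CPM in KO at stage II. It stood at 36.6, 33.2 and 37.4 CPM in WT and 40.1, 35.0 and 21.0 CPM in KO at stage III, and at 41.6, 36.5 and 39.1 and 40.9, 36.9 and 42.6 CPM at stage IV. The genotypes overlapped at stages III and IV, and at stage II all 3 KO libraries were above all WT libraries. Its fitted log2 change was 0.15 ± 0.15 (SE; adjusted p = 0.94) at stage II, -0.01 ± 0.15 at stage III and 0.02 ± 0.15 at stage IV.

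Srebf2, which encodes the SREBP best known for sterol genes, stood at 21.4, 20.3 and 18.9 CPM in WT and 29.9, 21.4 and 15.9 CPM in KO at stage II. At stage III it was 17.6, 19.7 and 19.6 CPM in WT and 14.8, 29.2 and 7.71 CPM in KO, and at stage IV 13.9, 14.7 and 14.5 CPM in WT and 10.8, 15.2 and 15.8 CPM in KO. The KO libraries of stage II and III lay on both sides of the WT libraries, and the widest spread was in KO stage III. Scap, the escort protein, was 18.8, 14.9 and 15.7 CPM in WT and 19.1, 17.1 and 20.5 CPM in KO at stage II. It was 15.6, 15.9 and 17.7 CPM in WT and 15.4, 14.0 and 17.3 CPM in KO at stage III, and 22.4, 15.8 and 16.99 CPM in WT and 18.2, 14.8 and 19.0 CPM in KO at stage IV. The genotypes overlapped at every stage, and Scap shares 18.9% of its exonic bases with a gene on the opposite strand, whose reads cannot be told apart if counting ignored strand.

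Insig1, which retains Scap in the endoplasmic reticulum and is itself a target of SREBPs, was the regulator with the widest spread between libraries. It stood at 14.3, 22.1 and 31.2 CPM in WT and 19.6, 37.7 and 32.2 CPM in KO at stage II. At stage III it was 13.2, 21.3 and 30.2 CPM in WT and 28.9, 35.6 and 79.2 CPM in KO. At stage IV it was 14.4, 22.3 and 36.7 CPM in WT and 18.6, 34.2 and 24.1 CPM in KO. In all 6 groups the library numbered 1 was the lowest, which held for no other member and for 247 of the 14156 tested genes (1.74%). A sum over 12 genes of the immediate early and stress response was also lowest in the library numbered 1 of every group, at 2556 to 3671 CPM against 3776 to 10710 CPM in the others, and its part in the levels of Insig1 was not tested. The KO against WT log2 change of Insig1 was 0.39 ± 0.47 at stage II, 1.37 ± 0.47 (adjusted p = 0.0755) at stage III and 0.04 ± 0.47 at stage IV. Without KO stage III replicates 1 and 3, which leaves 1 KO library of that stage, the stage III value was 0.67.

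Insig2, the related retention protein, stood at 39.0, 30.2 and 28.7 CPM in WT and 35.0, 27.3 and 37.0 CPM in KO at stage II. It stood at 36.4, 34.7 and 31.6 CPM in WT and 13.5, 31.1 and 30.0 CPM in KO at stage III, and at 40.8, 36.9 and 35.1 CPM in WT and 41.6, 38.5 and 38.1 CPM in KO at stage IV. At stage III the KO libraries were all below the WT libraries, as for 13.6% of tested genes, with replicate 1 far below the others. The fitted log2 change was -0.29 ± 0.22 (adjusted p = 0.41). At stages II and IV the genotypes overlapped.

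**Figure D2:**
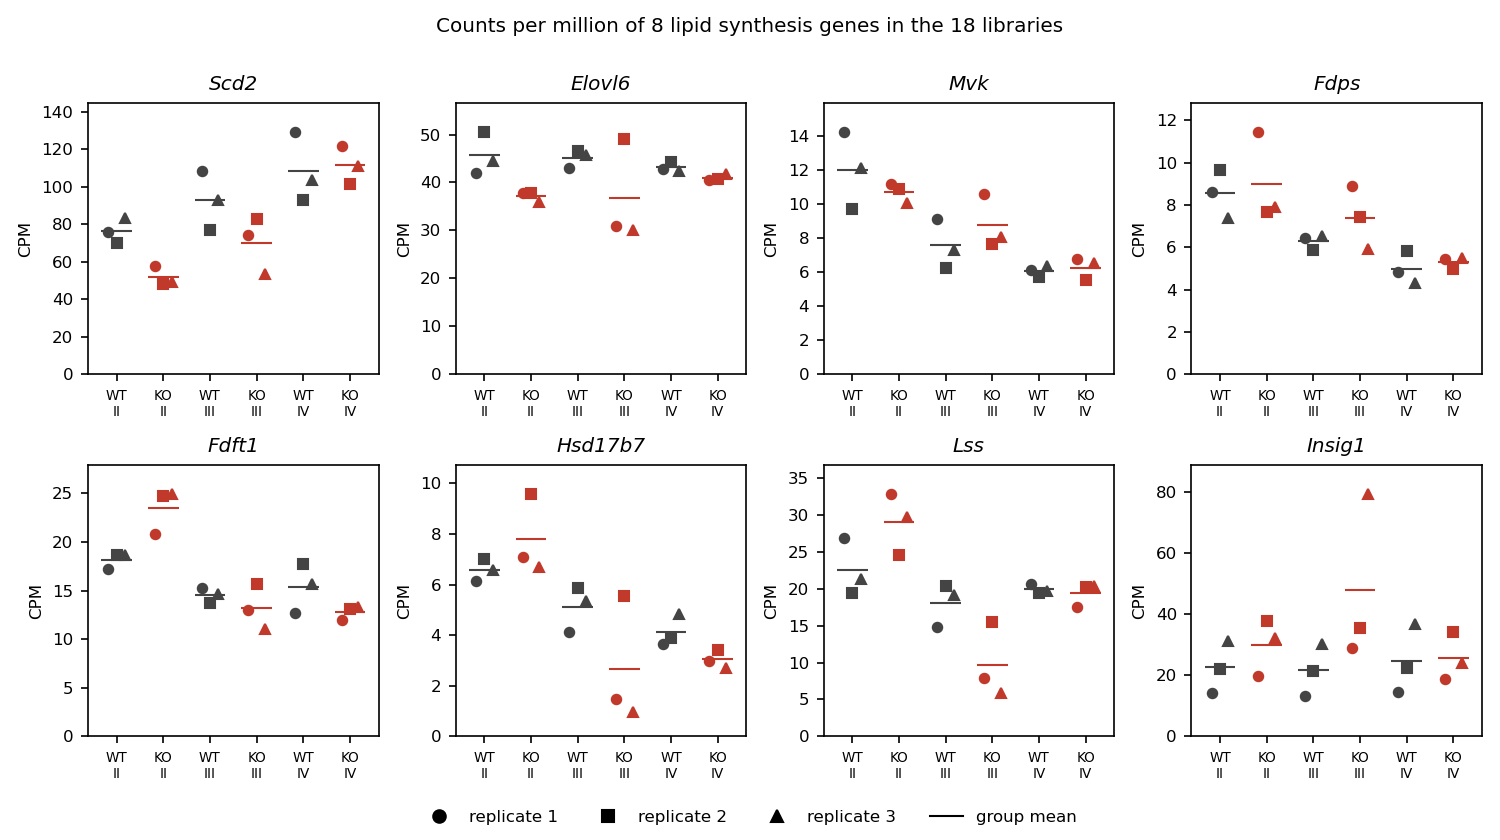
CPM (y axis, starting at 0) of 8 members are shown in each of the 18 libraries, grouped by genotype and stage on the x axis, with marker shapes for the replicate number and a line for the group mean. For Lss, KO stage III replicates 1 and 3 (7.84 and 5.82 CPM) lie below every other library.

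Lss, the enzyme that closes squalene epoxide into lanosterol, was the 1 member called lower in KO, at stage III alone (background 2.87%). Its position is chromosome 10, 76531588 to 76557138, plus strand (ENSMUSG00000033105). At stage III it stood at 14.8, 20.4 and 19.2 CPM in WT and 7.84, 15.5 and 5.82 CPM in KO. KO replicates 1 and 3 were below all WT libraries, and replicate 2 lay within the WT range. The log2 change was -0.79 ± 0.22 (adjusted p = 0.0392, 1.73-fold lower). Without KO stage III replicates 1 and 3, which leaves 1 KO library assumed to vary like the other groups, it was -0.27 (adjusted p = 0.996). The call was kept in 4 of 18 fits that each left out 1 library, with values from -1.17 to -0.62. At stage II Lss stood at 26.8, 19.5 and 21.3 CPM in WT and 32.8, 24.6 and 29.8 CPM in KO, a log2 change of 0.37 (adjusted p = 0.732). At stage IV it stood at 20.6, 19.4 and 19.7 CPM in WT and 17.5, 20.3 and 20.4 CPM in KO, a log2 change of -0.06. The difference between the stage III and stage II effects was -1.16 ± 0.31 (adjusted p = 0.226).

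Other members split by the same libraries at stage III, as tested genes did in general. In CPM, 18 members of KO replicate 1 and 20 of KO replicate 3 were below all 3 WT libraries, whereas replicate 2 had 7 below, 8 above and 14 within the WT range. Over all tested genes the share below all WT libraries was 53.1% in replicate 1, 57.7% in replicate 3 and 25.6% in replicate 2. Replicates 1 and 3 were both below the WT range for 17 members, against 39.9% of tested genes, and replicate 2 was below it for 3 of these, Sc5d, Insig2 and Fasn. In all, 3 members did not overlap between genotypes at stage III, against 19.9% of tested genes, and all 3 were lower in KO (background 13.6%). Fasn, the fatty acid synthase, stood at 61.6, 62.3 and 62.5 CPM in WT and 33.9, 55.9 and 35.7 CPM in KO, a log2 change of -0.43 ± 0.14 (adjusted p = 0.0604). Hmgcs1, the enzyme that makes HMG-CoA, stood at 41.1, 36.7 and 42.0 CPM in WT and 16.2, 45.0 and 19.4 CPM in KO, with replicate 2 above the WT range and a log2 change of -0.45 ± 0.25 (adjusted p = 0.229). Without KO replicate 2, edgeR called 10 members at stage III: Hsd17b7, Ebp, Nsdhl, Insig1, Mvk, Lss, Msmo1, Acaca, Fasn and Hmgcs1. These were 34.5% of the members, near the 30.7% of all 16318 genes tested in that fit, which rests on replicates 1 and 3 alone. Without replicates 1 and 3 it called 0, against 0.887% of the 18599 genes tested. The few detected genes, the share of counts in the top 10 genes and the low Itgam of replicates 1 and 3 stood in the same libraries as these values, and what part they have was not tested.

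**Figure D3:**
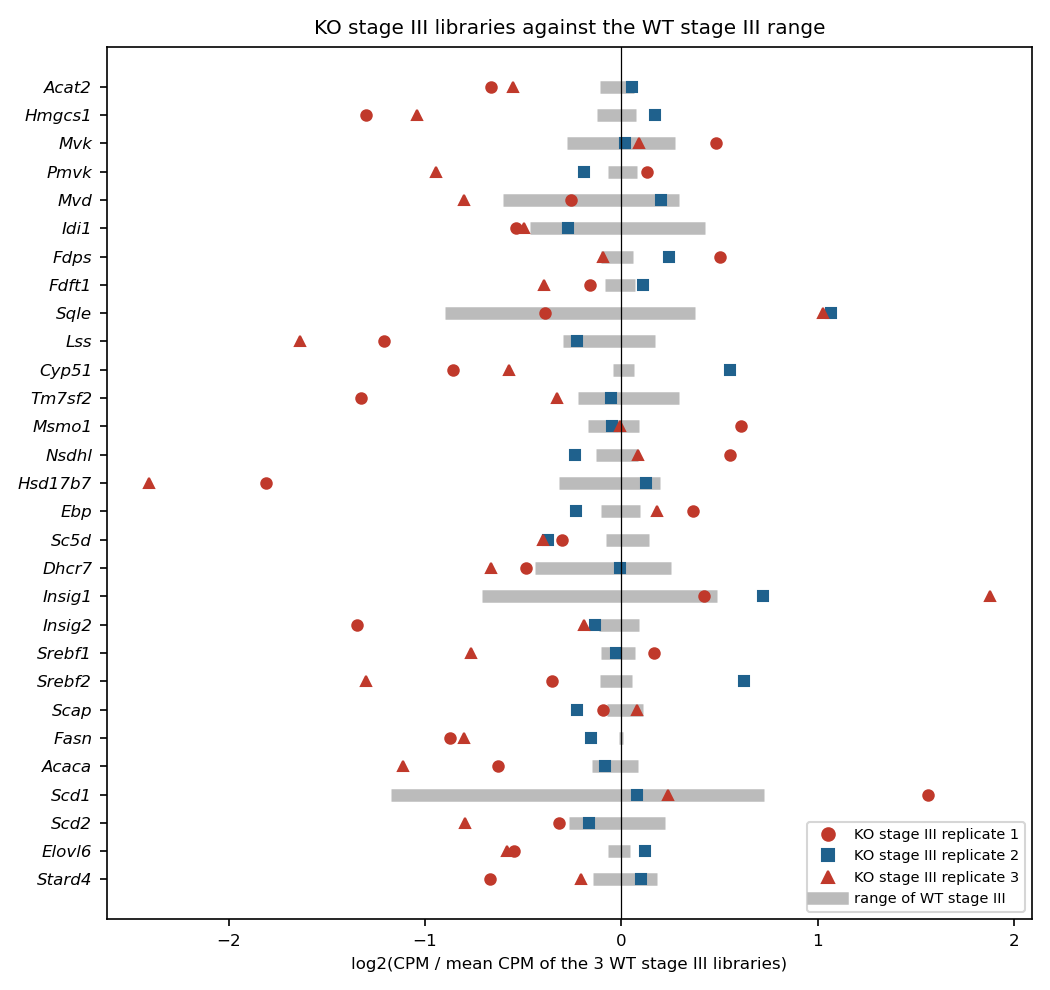
For each of the 29 members the log2 ratio of CPM to the mean of the 3 WT stage III libraries (x axis) is drawn for each KO stage III library, with a grey band for the range of the WT libraries. Replicates 1 and 3 sit below the band for 18 and 20 members, replicate 2 for 7.

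At stage II the desaturases and an elongase were the lowest members in KO cells relative to WT, though none passed the test. Scd2, which puts the double bond into stearoyl-CoA (chromosome 19, 44293676 to 44306864, plus strand, ENSMUSG00000025203), stood at 75.6, 70.0 and 83.4 CPM in WT and 57.6, 48.3 and 49.1 CPM in KO. All KO libraries were below all WT libraries. The log2 change was -0.57 ± 0.14, with an interval from -0.86 to -0.28 and an adjusted p of 0.0525, the smallest of the list at that stage. It was -0.25 ± 0.14 at stage III and 0.02 ± 0.14 at stage IV, and -0.27 ± 0.08 (adjusted p = 0.0633) averaged over the stages. DESeq2 gave an adjusted p of 0.00478 at stage II. Scd1, its close paralog, had 14, 7 and 14 counts in WT and 3, 4 and 2 in KO at stage II, a log2 change of -2.13 ± 0.81 (adjusted p = 0.374). Reads from stretches that are alike in Scd1 and Scd2 could be split by the authors' counting, so the share of each is uncertain. Elovl6, which lengthens palmitate, stood at 41.9, 50.5 and 44.5 CPM in WT and 37.8, 37.9 and 36.0 CPM in KO, with no overlap and a log2 change of -0.30 ± 0.13 (adjusted p = 0.474).

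In all, 7 members did not overlap between genotypes at stage II, against 19.6% of tested genes. The 3 lower in KO (background 9.02%) were Scd1, Scd2 and Elovl6, and the 4 higher (background 10.5%) were Fdft1, the squalene synthase, Cyp51, the lanosterol demethylase, Tm7sf2, a sterol reductase, and Srebf1. Fdft1 stood at 17.2, 18.6 and 18.6 CPM in WT and 20.8, 24.7 and 24.9 CPM in KO, a log2 change of 0.36 ± 0.15 (adjusted p = 0.46). Fdft1 shares 26.8% of its exonic bases with Ctsb on the opposite strand, and Tm7sf2 shares 15.3% with Vps51 on the same strand, so part of their reads may belong to the neighbour. The summed ILC1 markers did not overlap between genotypes at stage II either, and 5 of the 8 rose in KO (background 0.466%). The summed CPM of 9 T cell markers was 278 to 344 in WT and 135 to 195 in KO. Of the 7 tested, edgeR called 1, Cd3d, lower in KO (-1.54 ± 0.23, adjusted p = 0.00114), against 1.46% of tested genes called in either direction. Whether these transcripts came from T cells was not tested. The part of the ILC1 and T cell markers, or of such cells, in the stage II values was not tested either.

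At stage IV 3 members did not overlap, against 13% of tested genes. All 3 were lower in KO (background 5.61%): Hsd17b7, Sc5d and Elovl6. Sc5d, the desaturase late in cholesterol synthesis, stood at 86.5, 71.0 and 72.2 CPM in WT and 51.2, 62.4 and 61.2 CPM in KO. Its log2 change was -0.41 ± 0.12 (adjusted p = 0.233), and it was 0.02 ± 0.12 at stage II and -0.18 ± 0.12 at stage III.

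Between stage II and stage IV a few enzymes were called in each genotype, at shares near those of all tested genes. In WT cells edgeR called 3 members between stage IV and stage II, against 15.2% of tested genes. Scd2 was higher (background 5.35%) and Mvk and Fdps were lower (background 9.82%). In KO cells it called 5, against 14.9%. Scd2 was higher (background 6.12%), and Mvk, Fdps, Fdft1 and Hsd17b7 were lower (background 8.79%). The members' median log2 change was 0.08 in WT and -0.09 in KO, beside -0.02 and 0.03 over all tested genes. CPM did not overlap between the stages for 10 members in WT, against 41.9% of tested genes, and for 16 in KO, against 37.5%. Between adjoining WT stages edgeR called 0 members, both for III against II (3 at an unadjusted p under 0.05, background 2.96%, DESeq2 1) and for IV against III (1 at an unadjusted p under 0.05, background 3.25%, DESeq2 0).

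Scd2 rose from stage II to stage IV. It went from 75.6, 70.0 and 83.4 CPM at WT stage II to 108, 77.0 and 92.9 CPM at WT stage III and 129, 92.7 and 104 CPM at WT stage IV. In KO it went from 57.6, 48.3 and 49.1 CPM to 74.3, 82.8 and 53.4 CPM and 122, 102 and 111 CPM. Stage IV lay above stage II in every library of both genotypes. The log2 change was 0.58 ± 0.14 in WT (adjusted p = 0.00825, 1.5-fold) and 1.17 ± 0.14 in KO (adjusted p = 1.2e-05, 2.25-fold). The KO value was called in all 18 fits that left out 1 library. In WT the call was lost without WT stage IV replicate 1 (adjusted p = 0.0579). It was also lost without all libraries numbered 1 (log2 change 0.40, adjusted p = 0.111) and without the 2 libraries with most genes (adjusted p = 0.0525). The difference between the genotypes' changes was 0.59 ± 0.20 (adjusted p = 0.375). The summed CPM of the 8 ILC1 markers fell with the same stages, and its part in this rise was not tested.

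Mvk, the mevalonate kinase (chromosome 5, 114444269 to 114460591, plus strand, ENSMUSG00000041939), fell with maturation. It stood at 14.2, 9.69 and 12.1 CPM at WT stage II, 9.13, 6.24 and 7.29 CPM at WT stage III and 6.14, 5.72 and 6.36 CPM at WT stage IV. In KO it stood at 11.2, 10.8 and 10.1 CPM, then 10.6, 7.66 and 8.03 CPM, then 6.74, 5.53 and 6.51 CPM. Every stage IV library was below every stage II library. The log2 change from stage II to IV was -0.89 ± 0.19 in WT (adjusted p = 0.00406), called in all 18 fits that left out 1 library, and -0.71 ± 0.19 in KO (adjusted p = 0.0168), called in 14 of 18, with the losses without KO stage II replicates 1 or 2 and without KO stage IV replicates 2 or 3 (adjusted p = 0.0526 to 0.0854).

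Fdps, which makes farnesyl diphosphate just before the branch to sterols, stood at 8.60, 9.65 and 7.39 CPM at WT stage II and 4.83, 5.84 and 4.31 CPM at WT stage IV. In KO it stood at 11.5, 7.66 and 7.93 CPM at stage II and 5.46, 4.97 and 5.48 CPM at stage IV. The stages did not overlap in either genotype, and stage III stood at 5.85 to 6.55 CPM in WT and 5.90 to 8.89 CPM in KO, the latter overlapping KO stage II. The log2 change was -0.69 ± 0.21 in WT (adjusted p = 0.0327) and -0.70 ± 0.21 in KO (adjusted p = 0.0289), called in 7 and 12 of 18 fits that left out 1 library.

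Fdft1 and Hsd17b7 fell with maturation in KO cells. Fdft1 stood at 20.8, 24.7 and 24.9 CPM at KO stage II and 12.0, 13.1 and 13.3 CPM at KO stage IV, a log2 change of -0.81 ± 0.15 (adjusted p = 0.00117), called in all 18 fits that left out 1 library. In WT it stood at 17.2, 18.6 and 18.6 CPM and 12.7, 17.7 and 15.6 CPM, which overlapped, a log2 change of -0.16 ± 0.15. The difference between the genotypes was -0.65 ± 0.22 (adjusted p = 0.375). Hsd17b7, a sterol ketoreductase, stood at 7.09, 9.58 and 6.70 CPM at KO stage II and 3.00, 3.42 and 2.70 CPM at KO stage IV, a log2 change of -1.29 ± 0.40 (adjusted p = 0.0357), called in 5 of 18 such fits. In WT it stood at 6.13, 7.03 and 6.56 CPM and 3.64, 3.90 and 4.85 CPM, also without overlap, a log2 change of -0.59 that was not called. In the interaction tests edgeR called 0 members for stage III against II (2 at an unadjusted p under 0.05, background 0.0565%, DESeq2 1) and 0 for stage IV against II (3 at an unadjusted p under 0.05, background 0.219%, DESeq2 0).

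**Figure D4:**
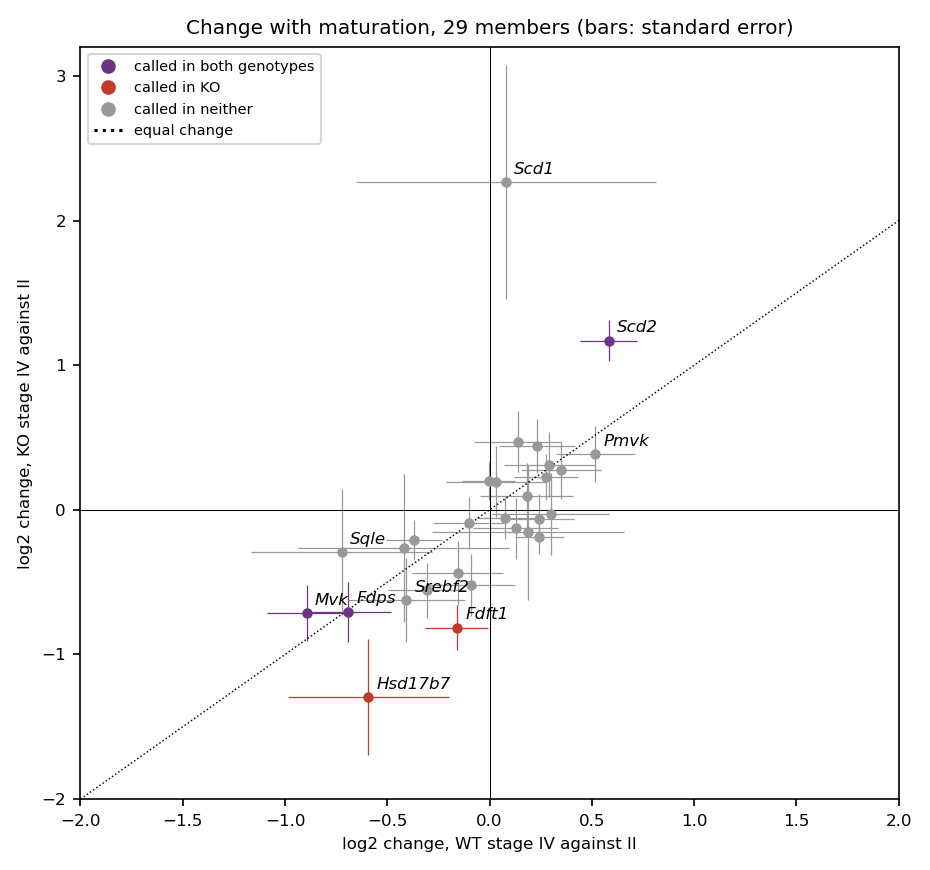
The log2 change from stage II to stage IV of each of the 29 members is drawn for WT (x axis) and KO (y axis), with bars for the standard error and a dotted line for equal change. Scd2 is high in both genotypes at 0.58 and 1.17, Mvk and Fdps are low in both, and Fdft1 lies below the dotted line. The axes share no library.

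Other genes of the pathway were read from lists of their own. Of 19 tested genes on a list of 24 other SREBP targets and lipid uptake genes, edgeR called 4 higher and 2 lower in WT stage IV against II (background 5.35% higher and 9.82% lower). Acss2, which makes acetyl-CoA from acetate, rose by 1.55 ± 0.14 on the log2 scale, Lpin1, a phosphatidate phosphatase, by 1.54 ± 0.15, and the acyl-CoA synthetase Acsl3 by 1.18 ± 0.37 (adjusted p = 0.0374). The desaturase Fads1 fell by 1.10 ± 0.32 and the elongase Elovl5 by 0.57 ± 0.12. In KO cells 3 rose (background 6.12%), Lpin1 (1.80 ± 0.15), Acss2 (1.57 ± 0.14) and Acsl3 (1.21 ± 0.37), and 2 fell (background 8.79%), Fdx1 and Elovl5. In KO against WT, edgeR called 0 of these 19 at stage II and at stage IV (1 at each with an unadjusted p under 0.05, DESeq2 0 at each). At stage III it called 2 higher (background 5.31%), Fdx1 and Cyb5b, and 1 lower (background 2.87%), Acss2 (-0.78 ± 0.14, adjusted p = 0.00486). A fit without KO stage III replicates 1 and 3 keeps 1 KO library of that stage, so its calls cannot decide whether these changes hold. Averaged over the stages edgeR called 2 lower in KO (background 2.51%), Acss2 (-0.49 ± 0.08, adjusted p = 0.00116) and Acsl3 (-0.81 ± 0.21, adjusted p = 0.0336).

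Of a list of 16 genes of SREBP processing and turnover, all tested, those named here are given without a count for the list. At stage III Erlin2 (-0.97 ± 0.17, adjusted p = 0.00425), Sec24c (-0.80 ± 0.22) and Sec24b (-0.39 ± 0.12) were lower in KO, the latter pair being coat proteins of vesicles leaving the endoplasmic reticulum. A fit without KO stage III replicates 1 and 3 keeps 1 KO library of that stage, so its calls cannot decide whether these changes hold. With maturation, Sec24b rose in WT (0.39 ± 0.12), and Fbxw7 (0.49 ± 0.13), part of a ubiquitin ligase, rose in KO. At stage II and stage IV edgeR called 0 of the 16 in KO against WT (1 and 0 at an unadjusted p under 0.05, DESeq2 0 at each).

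Cell division genes serve as a comparison, since dividing cells make membrane. Of 16 cell cycle genes, 8 fell from stage II to stage IV in WT (background 9.82%), led by Ccnb2 (-3.66 ± 0.80, adjusted p = 0.00445) and Birc5 (-3.18 ± 0.70), and in KO 2 fell and 1 rose (background 8.79% and 6.12%). In KO against WT edgeR called 0 of the 16 at stages II, III and IV (2, 0 and 0 at an unadjusted p under 0.05, DESeq2 0 at each). Mvk and Fdps fell between the same stages as these genes, and the part of dividing cells in their change was not tested.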

How the data were processed

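RNA was sequenced in 18 libraries (6 groups of 3). Alignment and counting used STAR 2.0.4 and Subread's featureCounts 1.4.5, according to the submitters' processing notes. The sources used here name neither the genome build nor the strand setting. The authors' deposited files hold, per the file headers, a raw count, a CPM and an RPKM for each of 41388 genes. The deposited CPM equals the count over the library total, within a relative difference of 5.0e-15, and the deposited RPKM is that value per kilobase. Of the gene identifiers, 40254 had a symbol, and all 29 members overlapped their GENCODE M21 position on GRCm38.

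The deposited counts went into edgeR 4.0.16 (R 4.3.3). Filtering by group left 14156 genes. Scaling was by TMM, and 1 robust quasi-likelihood model with 6 group means was fitted to all 18 libraries. Benjamini-Hochberg adjustment ran over all tested genes, and calls were made at an adjusted p under 0.05. Standard errors (the absolute log2 change over the square root of F) and the 95% intervals are approximate. The scripts were tested on simulated data. Alternatives were RLE scaling, DESeq2 1.42.0, no filter, limma 3.58.1 voom with quality weights, a replicate block, only the groups compared, and libraries left out. CPM in every library is given for the 5 regulators, for members called in KO against WT, and for members called between stages, and others are named where groups did not overlap. The main model holds no term for the replicate number, so its p-values use no pairing. All 9 same-numbered pairs of WT libraries had deviations from their group means correlated over 0.1 (r from 0.131 to 0.485). Over all groups this held for 24 of 45 same-numbered pairs and for 18 of 90 other pairs, the latter up to 0.632. The replicate block held terms for the number that all 18 libraries shared, so it also tied KO to WT libraries of the same number. The numbers were taken as a pairing only between the WT stages. The members and the lists were chosen with earlier results of these data known. Some genes of the SREBP processing list are not reported here.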

Additional observations from a re-analysis of the deposited data

How the results depend on the processing

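Results at stage III and with maturation depended most on the processing, and KO stage III libraries limit what the list can show at stage III. All groups shared 1 estimate of the spread, so those libraries also entered the tests of comparisons that do not use them. Of the 89 counts of members called under the alternatives other than single left-out libraries, 52 stayed within 1.5 times the reported count, and in the fits of named members 914 values kept direction and call, 66 became called, 66 lost the call and 2 reversed. In KO against WT at stage II the count was 1 (Scd2) with RLE scaling, DESeq2, the replicate block, only the groups compared, and without KO stage III replicates 1 and 3, and it was 2 with voom. At stage III it was 3 with DESeq2, 2 with no filter and with the replicate block, and 0 with voom, with only the groups compared, without KO stage III replicates 1 and 3, without the libraries with most genes (replicate 1 of WT stage II, replicate 3 of KO stage IV), and without all libraries numbered 1. At stage IV it was 1 (Sc5d) with voom and without KO stage III replicates 1 and 3. Averaged over the stages it was 1 with DESeq2, with no filter and without KO stage III replicates 1 and 3, and 2 (Insig1 and Scd2) with the replicate block. Between WT stages III and II it was 1 with DESeq2, with only the groups compared and without KO stage III replicates 1 and 3, and 2 with voom. Between WT stages IV and III it was 2 with voom and 1 with only the groups compared. For WT stage IV against II it was 9 with voom, 8 with only the groups compared, 6 without KO stage III replicates 1 and 3, and 1 without the libraries with most genes. For KO stage IV against II it was 12 with voom, 9 with only the groups compared and without KO stage III replicates 1 and 3, 3 with no filter, and 2 without the libraries with most genes. For the stage III against II interaction it was 1 (Lss) with DESeq2 and with no filter. The cause of these moves was not tested. Leaving out each library in turn gave 0 to 1 at stage II, 0 to 10 at stage III, 0 to 0 at stage IV, 0 to 5 averaged, 0 to 0 for both adjoining WT stages, 1 to 4 for WT stage IV against II, 2 to 6 for KO stage IV against II, and 0 to 4 and 0 to 0 for the interactions. The 10, the 5 and the 4 were all without KO stage III replicate 2, and the 1 at stage II (Scd2) too. They were 34.5%, 17.2% and 13.8% of the members for the 10, the 5 and the 4. The shares of all tested genes called in that fit were near, at 30.7%, 19.7% and 15.2%. The other counts of this paragraph stand without such a share, so they describe the settings and are not a result about the members. Without KO stage III replicates 1 and 3 the stage III log2 change reversed for Msmo1 to -0.0852 and for Hsd17b7 to 0.0775. Between KO and WT, same-numbered libraries had deviations correlated over 0.1 in 1 of 3 pairs at stage II, 0 of 3 at stage III and 2 of 3 at stage IV. Between KO stages this held in 1 of 3 pairs for II with IV, 1 of 3 for III with IV and 3 of 3 for II with III (r from 0.154 to 0.313). Whether the numbers pair the KO libraries cannot be told from so few pairs. Between the WT stages, where the numbers were taken to pair the libraries, the replicate block changed no member's call.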

Other observations

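Genes of cholesterol export, storage and release were called at shares close to those of all tested genes with maturation. Of 18 tested genes on a list around the sterol receptors LXR, edgeR called 2 higher and 1 lower in WT stage IV against II, against 15.2% of all tested genes: Mylip, a ubiquitin ligase for lipoprotein receptors, rose by 0.97 ± 0.29 on the log2 scale (adjusted p = 0.0306), the lysosomal lipase Lipa rose by 0.44 ± 0.12, and Smpdl3a fell by 0.58 ± 0.13 (adjusted p = 0.00483). In KO cells 3 were called, against 14.9%: Lipa rose by 0.42 ± 0.12, and Nceh1 fell by 0.67 ± 0.14. Smpdl3a fell in KO cells too (adjusted p = 2.94e-05). In KO against WT at stage III 3 were called, against 8.17%: Npc1 (-0.60 ± 0.15, adjusted p = 0.0273) and Lipa (-0.47 ± 0.12) were lower and Smpdl3a (0.44 ± 0.13) was higher. A fit without KO stage III replicates 1 and 3 keeps 1 KO library of that stage, so its calls cannot decide whether these changes hold. At stages II and IV edgeR called 0 (1 and 0 at an unadjusted p under 0.05, DESeq2 0 at each).

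Of 13 tested genes of fatty acid oxidation, edgeR called 1, Ppargc1a, a coactivator of mitochondrial genes, higher in KO stage IV against II (1.23 ± 0.34, adjusted p = 0.0191), against 6.12% of tested genes higher in that comparison. In KO against WT it called 0 at stages II, III and IV (1, 3 and 0 at an unadjusted p under 0.05, DESeq2 0, 1 and 0).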
